A study of Bassia scoparia with 27 samples.

Results

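Cellulose synthases of kochia (Bassia scoparia) were described by 4 transcripts of 3 genes, out of 45517 transcripts of 43114 loci in the normalized count table. The members were Bs.00g015170.m01 and Bs.00g015170.m02, which are isoforms of 1 gene, and Bs.00g056700.m01 and Bs.00g260720.m01. They were chosen because the study's text names them as cellulose synthases, and the gene models used here carry no description of their own. All 4 passed the filter on low values. The study listed them for lower expression after treatment in both susceptible lines. Tests of that fall in 9425 and J01-S are therefore not independent evidence of its direction. The values of 9425 and J01-S behind that choice also enter the comparisons between lines and of responses, which are not independent of it either.

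RNA-seq had been run on shoot tip tissue of 3 lines. The study's methods describe it both as meristem tissue and as fully expanded leaves at the apex. Flur-R is resistant to the synthetic auxin herbicide fluroxypyr, 9425 is an inbred line that is dicamba-resistant and fluroxypyr-susceptible, and J01-S is a susceptible field population. Each line was sampled untreated (sprayed with water), then after fluroxypyr at its labelled rate, with tissue taken 3 and 10 h later (3 and 10 HAT, hours after treatment). Tissue of all 3 times came from 1 set of plants, and no untreated tissue from the later hours was among the 27 libraries. There were 3, 3 and 4 libraries (untreated, 3 HAT, 10 HAT) of each of Flur-R and 9425, and 2, 2 and 3 of J01-S. The time since spraying and the hour of sampling therefore cannot be told apart.

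Cellulose synthases are the catalytic subunits of rosette complexes in the plasma membrane, which polymerize glucose from UDP-glucose into the beta-1,4-glucan chains of cellulose. In Arabidopsis, different subunits serve the primary wall of growing cells and the secondary wall laid down when growth stops, and the related cellulose synthase-like proteins make other wall polysaccharides. The sources used here do not say to which of these classes the kochia transcripts belong.

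The libraries summed to between 59.4 and 76.9 M normalized counts when untreated, to between 60.0 and 75.6 M at 3 HAT and to between 50.9 and 61.3 M at 10 HAT. The line labels of 2 libraries at 10 HAT were in doubt. Over 943 transcripts that separated 9425 from J01-S in every untreated and 3 HAT library, the library labelled J01-S 10 HAT replicate 3 lay on the 9425 side for 97.9% and the library labelled 9425 10 HAT replicate 3 for 38.2%. The other 9425 libraries at 10 HAT lay there for 97.7 to 99.3%, and J01-S replicates 2 and 4 for 26.8 and 1.48%. Values of 9425 and J01-S at 10 HAT rest on the libraries in doubt and are given with and without them, where without means leaving out both. J01-S replicate 2 was intermediate and was not left out. J01-S values at 10 HAT without the doubtful libraries therefore still include it. The auxin-conjugating enzyme GH3.2 (Bs.00g477580.m01), a check of treatment, averaged 29708, 39708 and 45370 normalized counts for Flur-R, 9425 and J01-S at 10 HAT, against 67.3, 92.0 and 279 when untreated. Without the doubtful libraries it averaged 35860 in 9425 and 44698 in J01-S at 10 HAT.

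On the assembly version 2 gene models, Bs.00g015170 lies on chromosome 8 from 18533672 to 18539039 on the minus strand, in 13 exons. Its isoforms share 2943 coding bases and 12 identical exons, and Bs.00g015170.m01 has 3 more coding bases, in the exon that is the third from the coding start. Across the 27 libraries the normalized count of Bs.00g015170.m02 was 97.1 to 107% of that of Bs.00g015170.m01, with a median of 102%. The isoforms share nearly all of their sequence, so their separate levels are uncertain and they count as 1 gene. Bs.00g056700.m01 lies on chromosome 8 from 96118591 to 96124042 on the plus strand, with 13 exons and a coding length of 3120 bases. Bs.00g260720.m01 lies on chromosome 7 from 24950437 to 24955349 on the minus strand, and has only 4 exons, the longest of 1782 bases, for a coding length of 3411 bases.

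Before treatment, Bs.00g056700.m01 had the highest mean level of the 4 transcripts per kb of coding sequence in every line. Its mean per kb was 712 ± 25.9 normalized counts for Flur-R (SD, n = 3), 641 ± 101 for 9425 (n = 3) and 1583 ± 309 for J01-S (n = 2). Bs.00g015170.m01 averaged 259 ± 79.8, 258 ± 75.3 and 560 ± 82.1 per kb in Flur-R, 9425 and J01-S, and its other isoform averaged 266, 268 and 572. Bs.00g260720.m01 was the lowest, at 40 ± 17.2, 69.2 ± 18.8 and 74.5 ± 23.6 per kb in the same order of lines.

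The first comparison asked whether the basal level differed by line. None of the 4 transcripts was called in any of the 3 comparisons of untreated lines, a call being an adjusted p under 0.05 with a log2 fold change over 0.5 in size. Few transcripts were called in either direction, at 3.28% of the 29165 tested for Flur-R against 9425, 2.04% for Flur-R against J01-S and 2.45% for 9425 against J01-S, so 0 of 4 says nothing particular about the members. Levels of 3 of the 4 were higher in both untreated J01-S libraries than in any untreated library of the other lines. These were the isoforms of the gene Bs.00g015170 and Bs.00g056700.m01, and 7.47% of all transcripts did the same. The members were chosen for falls from these untreated values in J01-S and 9425, so their basal order is not independent of that choice.

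Bs.00g015170.m01 had normalized counts of 789, 982 and 514 in untreated Flur-R, 564, 1001 and 717 in untreated 9425, and 1478 and 1820 in untreated J01-S. Flur-R and 9425 overlapped throughout, and J01-S stood above both. The log2 fold change was -0.01 (SE 0.53, 95% interval -1.10 to 1.09, adjusted p = 1) for Flur-R against 9425, -1.16 (SE 0.59, interval -2.38 to 0.07, adjusted p = 0.456) for Flur-R against J01-S and -1.15 (SE 0.59, adjusted p = 0.329) for 9425 against J01-S. The isoform Bs.00g015170.m02 gave -0.01, -1.14 and -1.13 for the same comparisons.

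Bs.00g056700.m01 had 2130, 2274 and 2265 normalized counts in untreated Flur-R, 1792, 1849 and 2362 in untreated 9425, and 4259 and 5621 in untreated J01-S. The 3 Flur-R libraries lay close together within the span of 9425, and J01-S was again above both lines. The log2 fold change was 0.16 (interval -0.63 to 0.96, adjusted p = 0.89) for Flur-R against 9425 and -1.14 (SE 0.43, interval -2.03 to -0.25, adjusted p = 0.246) for Flur-R against J01-S. For 9425 against J01-S it was -1.30 (SE 0.43, interval -2.19 to -0.41, adjusted p = 0.113). These comparisons share the libraries of each line.

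Bs.00g260720.m01 had 80, 197 and 132 normalized counts in untreated Flur-R, 162, 270 and 276 in untreated 9425, and 311 and 197 in untreated J01-S. All 3 lines overlapped. The log2 fold change was -0.84 (interval -2.67 to 0.99, adjusted p = 0.688) for Flur-R against 9425, -0.95 (interval -3 to 1.10, adjusted p = 0.802) for Flur-R against J01-S and -0.11 (interval -2.16 to 1.94, adjusted p = 0.981) for 9425 against J01-S. Intervals this wide leave differences of several fold in either direction undetectable with 2 or 3 libraries a group.

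**Figure D1:**
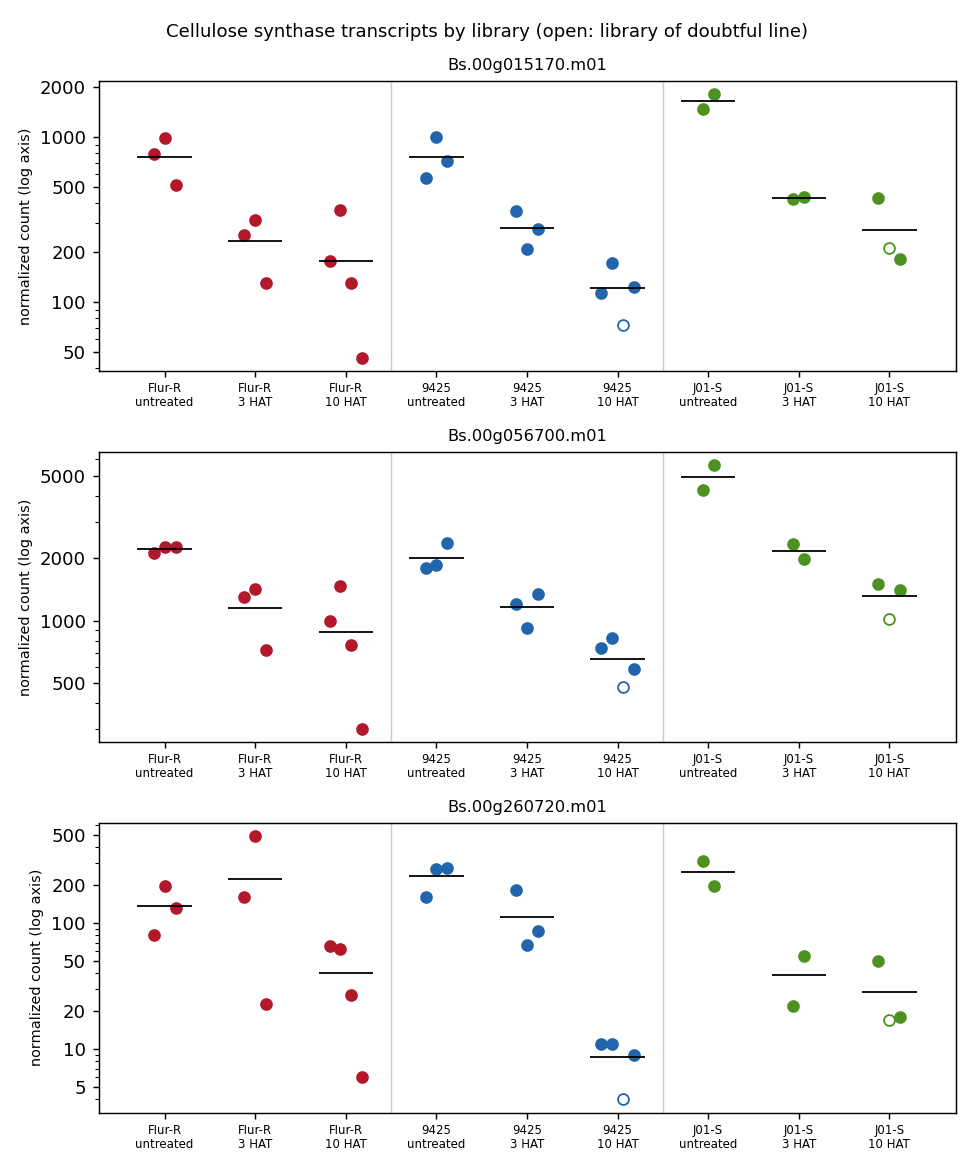
Normalized counts (log axis) of Bs.00g015170.m01, Bs.00g056700.m01 and Bs.00g260720.m01 in each of the 27 libraries, by line and time. Points are libraries, lines are group means and open points are the 2 libraries of doubtful line. Untreated J01-S sits above the other untreated lines in the upper panels, and in 9425 at 10 HAT Bs.00g260720.m01 reaches 4 to 11.

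The second comparison asked how the levels changed after treatment. At 10 HAT all 4 transcripts were lower than untreated in each of the 3 lines as labelled. For Bs.00g260720.m01 the change was not called in Flur-R (-2.09, adjusted p = 0.0849 by limma). Its call in J01-S was lost without the doubtful libraries (-3, adjusted p = 0.0776). Called lower at 10 HAT were 3 of the 4 transcripts in Flur-R, where 10.4% of the 29165 transcripts tested were called lower, 4 of 4 in 9425, where 12.4% were, and 4 of 4 in J01-S, where 8.78% were. Without the 2 doubtful libraries the count in J01-S was 3, and it was 4 in 9425. In each line all 4 members had every 10 HAT library below every untreated one, which held for 15.3, 15.2 and 20.2% of all transcripts for Flur-R, 9425 and J01-S, and without the doubtful libraries for 17.5% in 9425 and 23.9% in J01-S. At 3 HAT the isoforms of Bs.00g015170 were called lower in Flur-R (2 of 4 transcripts, against 4% of all transcripts), and no member was called in 9425 (3.33% of all transcripts) or J01-S (3.28%). Counts and medians of members in this paragraph take in both isoforms, so that gene weighs more than the others. With plant as a random effect, 2 members, the isoforms, were called lower at 3 HAT in 9425 and 4 in J01-S. In that fit 1983 and 2366 of all transcripts were called lower in these lines. The median change of all transcripts was between 0.03 and 0.05 on the log2 scale at 10 HAT, while the members' median was -2.24, -2.69 and -2.67 for Flur-R, 9425 and J01-S, or -2.48 for 9425 and -2.54 for J01-S without the doubtful libraries. In bulk tissue, fewer cells of a type and less RNA per cell cannot be told apart.

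In Flur-R, Bs.00g015170.m01 had 789, 982 and 514 normalized counts untreated, 256, 315 and 130 at 3 HAT, and 177, 360, 130 and 46 at 10 HAT. Every treated library lay below every untreated one, while the treated times overlapped. The log2 fold change from untreated was -1.74 (SE 0.53, adjusted p = 0.0409) at 3 HAT and -2.39 (SE 0.49, adjusted p = 0.00136) at 10 HAT. For Bs.00g015170.m02 it was -1.75 (adjusted p = 0.0397) and -2.39 (adjusted p = 0.0013). The call at 3 HAT was lost for both isoforms when any 1 of 4 libraries was left out. For Bs.00g015170.m01 the change without untreated replicate 2 was -1.69 (adjusted p = 0.109), without untreated replicate 3 -1.54 (0.158), without 3 HAT replicate 2 -1.86 (0.0791) and without 3 HAT replicate 4 -1.37 (0.156). For Bs.00g015170.m02 the same omissions gave -1.71 (0.106), -1.55 (0.154), -1.86 (0.0786) and -1.38 (0.153). Fitted with only the groups compared, the fall at 10 HAT was -2.39 for each isoform with adjusted p of 0.0614 and 0.0628, so that call rests on the spread shared by all 9 groups.

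In 9425, Bs.00g015170.m01 had 564, 1001 and 717 normalized counts untreated, 357, 211 and 277 at 3 HAT, and 114, 173, 73 and 124 at 10 HAT. The groups of the 3 times did not overlap. The fall was -1.42 (SE 0.53, adjusted p = 0.115) at 3 HAT, which was not called, and -2.67 (SE 0.49, adjusted p = 0.000354) at 10 HAT, or -2.45 (adjusted p = 0.00221) without the doubtful libraries. With the plant as a block, the 3 HAT values became -1.53 (adjusted p = 0.028) for Bs.00g015170.m01 and -1.54 (adjusted p = 0.03) for Bs.00g015170.m02, both called.

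In J01-S, Bs.00g015170.m01 had 1478 and 1820 normalized counts untreated, 420 and 431 at 3 HAT, and 427, 212 and 183 at 10 HAT. All treated libraries lay below the untreated ones, and 10 HAT replicate 2 was level with 3 HAT. The log2 change was -1.94 (SE 0.64, adjusted p = 0.0708) at 3 HAT and -2.68 (SE 0.59, adjusted p = 0.00324) at 10 HAT, or -2.55 (adjusted p = 0.0123) without the doubtful libraries. With the plant as a block, the 3 HAT change kept its size of -1.94 and was called (adjusted p = 0.0131), as was Bs.00g015170.m02 at -1.96 (adjusted p = 0.014).

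Bs.00g056700.m01 fell by less on the log2 scale. In Flur-R it had 2130, 2274 and 2265 normalized counts untreated, 1296, 1419 and 723 at 3 HAT, and 999, 1467, 766 and 302 at 10 HAT. Both treated times lay below untreated and overlapped each other, with the lowest values in plant 4. Its log2 change was -1.01 (SE 0.38, adjusted p = 0.113) at 3 HAT and -1.54 (SE 0.36, adjusted p = 0.00361) at 10 HAT. With only the groups compared, the 10 HAT change was -1.54 with an adjusted p of 0.0947.

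In 9425, Bs.00g056700.m01 had 1792, 1849 and 2362 normalized counts untreated, 1205, 918 and 1352 at 3 HAT, and 742, 822, 477 and 585 at 10 HAT. The groups of the 3 times did not overlap. The log2 change was -0.80 (SE 0.38, adjusted p = 0.258) at 3 HAT and -1.63 (SE 0.36, adjusted p = 0.00173) at 10 HAT, or -1.48 (adjusted p = 0.00804) without the doubtful libraries.

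In J01-S, Bs.00g056700.m01 had 4259 and 5621 normalized counts untreated, 2332 and 1994 at 3 HAT, and 1504, 1022 and 1409 at 10 HAT. These groups did not overlap either. It changed on the log2 scale by -1.18 (SE 0.47, adjusted p = 0.141) at 3 HAT and -1.92 (SE 0.43, adjusted p = 0.00359) at 10 HAT, or -1.75 (adjusted p = 0.0169) without the doubtful libraries. With the plant as a block, the 10 HAT change was -1.84 and was no longer called (adjusted p = 0.0616), and only plant 4 of J01-S was sampled both untreated and at 10 HAT.

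Bs.00g260720.m01 had the lowest counts of the 3 genes, and differences between genes in their response were not tested. In Flur-R it had 80, 197 and 132 normalized counts untreated, 161, 490 and 23 at 3 HAT, and 66, 62, 27 and 6 at 10 HAT. At 3 HAT plants 2 and 3 were above their own untreated values and plant 4 was below, while at 10 HAT every library lay below the untreated ones. On the log2 scale it changed by -0.05 (SE 0.88, interval -1.88 to 1.78, adjusted p = 1) at 3 HAT and -2.09 (SE 0.82, interval -3.81 to -0.38, adjusted p = 0.0849) at 10 HAT, which was not called. With the plant as a block, the 10 HAT change was -2.48 and was called (adjusted p = 0.0318).

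In 9425, Bs.00g260720.m01 had 162, 270 and 276 normalized counts untreated, 183, 67 and 86 at 3 HAT, and 11, 11, 4 and 9 at 10 HAT. All 10 HAT libraries were far below both earlier times, which overlapped. The log2 change was -1.16 (SE 0.88, adjusted p = 0.569) at 3 HAT and -4.64 (SE 0.82, adjusted p = 0.000239) at 10 HAT, or -4.35 (adjusted p = 0.00145) without the doubtful libraries. With all libraries, 0.302% of the transcripts tested had a lower change at 10 HAT in 9425. For the same transcript the share was 4.27% in Flur-R and 2.03% in J01-S. Its counts of 4 to 11 at 10 HAT in 9425 lie near the filter value of 10. Bs.00g260720.m01 was also the only member called between 10 and 3 HAT in 9425, where 5.06% of all transcripts were called lower. That change was -3.48 (SE 0.82, adjusted p = 0.011), or -3.19 (adjusted p = 0.0449) without the doubtful libraries. Leaving out 9425 3 HAT replicate 2 ended that call, at -3.06 (adjusted p = 0.0743).

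In J01-S, Bs.00g260720.m01 had 311 and 197 normalized counts untreated, 22 and 55 at 3 HAT, and 50, 17 and 18 at 10 HAT. Both treated times were below untreated and overlapped. The log2 change was -2.79 (SE 1.08, adjusted p = 0.129) at 3 HAT and -3.26 (SE 0.98, adjusted p = 0.027) at 10 HAT. The call at 10 HAT was lost without the 2 doubtful libraries, at -3 (adjusted p = 0.0776), and with the plant as a block, at -3.87 (adjusted p = 0.064). It was also lost on leaving out untreated replicate 1 (-2.93, adjusted p = 0.198), untreated replicate 4 (-3.59, 0.0713), 10 HAT replicate 3 (-3, 0.0815) or 10 HAT replicate 4 (-3.04, 0.0714).

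**Figure D2:**
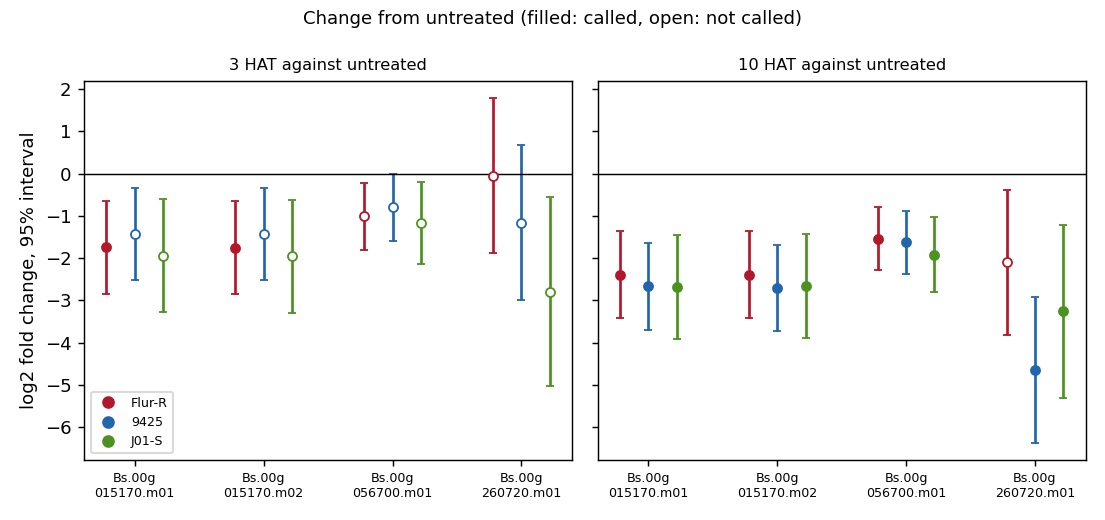
Log2 fold change from untreated of the 4 transcripts at 3 HAT (left) and 10 HAT (right) in Flur-R, 9425 and J01-S, with 95% intervals from limma. Filled points were called and open points were not. At 10 HAT every interval lies below 0, and Bs.00g260720.m01 ranges from -2.09 in Flur-R to -4.64 in 9425.

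The plants sampled more than once gave the same comparison within individuals. Counting the isoforms as 1 gene by Bs.00g015170.m01, there were 21 pairs of gene and plant from 7 plants for each pair of times. The genes share these plants, so the pairs are not independent. The share of all transcripts that were lower in the same plants was not computed, so the counts are descriptions only. At 10 HAT the level was below the untreated value of the same plant in 21 of 21 pairs, or 18 of 18 from 6 plants without the doubtful libraries. At 3 HAT it was below in 19 of 21 pairs, the exceptions being Bs.00g260720.m01 in Flur-R plants 2 and 3, which stood at 201 and 249% of their untreated values. Between 3 and 10 HAT it was lower in 19 of 21 pairs, or 16 of 18 without the doubtful libraries. In the remaining 2 pairs Bs.00g015170.m01 and Bs.00g056700.m01 were higher at 10 HAT in plant 2 of Flur-R. At 10 HAT Bs.00g260720.m01 stood at 77.5, 13.7 and 4.55% of untreated in Flur-R plants 2, 3 and 4, at 6.79, 4.07 and 1.45% in 9425 plants 1, 2 and 3, and at 9.14% in J01-S plant 4. The value of 9425 plant 3 comes from a library of doubtful line.

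**Figure D3:**
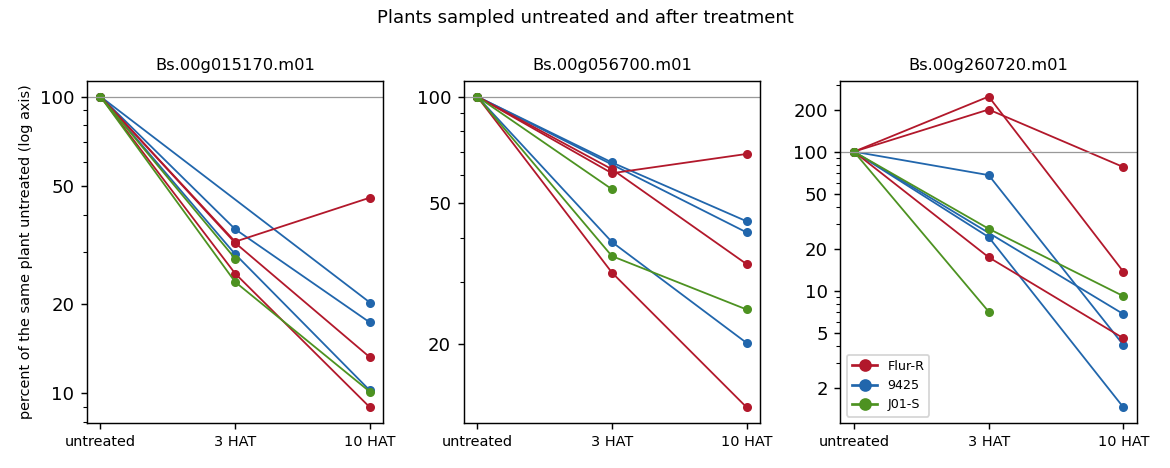
Normalized counts as percent of the untreated value of the same plant (log axis) for Bs.00g015170.m01, Bs.00g056700.m01 and Bs.00g260720.m01, with 1 line per plant. A line without a middle or end point is a plant with no library at that time. Flur-R plants 2 and 3 reach 201 and 249% for Bs.00g260720.m01 at 3 HAT.

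The third comparison asked whether the response differed between the resistant and the susceptible lines. No member was called, and almost no transcript was. At 10 HAT 0.0377% of all transcripts were called for Flur-R minus 9425 and 0.0103% for Flur-R minus J01-S, and at 3 HAT 0.0309 and 0% (by limma, 505 transcripts had an unadjusted p under 0.05 in the last of these). At 10 HAT the response of Flur-R minus that of 9425 was 0.28 (interval -1.16 to 1.73, adjusted p = 0.979) on the log2 scale for Bs.00g015170.m01, 0.31 for its other isoform and 0.09 (interval -0.96 to 1.14, adjusted p = 0.994) for Bs.00g056700.m01. Without the doubtful libraries these were 0.06, 0.10 and -0.06. For Bs.00g260720.m01 it was 2.55 (interval 0.13 to 4.97, unadjusted p = 0.0399 and adjusted p = 0.687 by limma), or 2.26 (adjusted p = 0.809) without the doubtful libraries. Flur-R minus J01-S gave 0.30 (interval -1.30 to 1.89), 0.27, 0.38 (interval -0.78 to 1.53) and 1.17 (interval -1.50 to 3.83) for the 4 transcripts, with adjusted p of at least 0.943, and 0.16, 0.14, 0.21 and 0.90 without the doubtful libraries. These responses share the Flur-R libraries. The members were chosen for falls in the susceptible lines, so these differences are not independent of that choice. At 3 HAT the response of Bs.00g260720.m01 in Flur-R minus that in J01-S was 2.74 (interval -0.16 to 5.63, adjusted p = 1), and the other transcripts lay between -0.33 and 0.21 for both susceptible lines.

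No member was called between lines at 3 or 10 HAT. At 3 HAT 3.1% of all transcripts were called for Flur-R against 9425, 3.06% for Flur-R against J01-S and 3.23% for 9425 against J01-S, and at 10 HAT 4.43, 2.23 and 0%. For 9425 against J01-S at 10 HAT no transcript was called by limma with all libraries (2218 had an unadjusted p under 0.05), and without the doubtful libraries 690 were called higher and 898 lower, none of them a member. The members' log2 differences there ran from -1.49 to -1.01 with all libraries and from -1.46 to -1.04 without. At 10 HAT the level of Bs.00g260720.m01 in Flur-R against 9425 was 1.71 higher on the log2 scale (interval 0.13 to 3.30, adjusted p = 0.221), or 1.42 (adjusted p = 0.343) without the doubtful libraries. Against J01-S the difference was 0.22 (interval -1.49 to 1.93, adjusted p = 0.93), or -0.05 without them. Plant 4 of Flur-R was the lowest of its line for every member at 3 and 10 HAT. Leaving out all libraries of that plant, a step chosen after its values were seen, made 3 comparisons of Bs.00g260720.m01 pass. These were Flur-R against J01-S at 3 HAT (2.97, adjusted p = 0.0254), Flur-R against 9425 at 10 HAT (2.41, adjusted p = 0.0129) and Flur-R at 10 against 3 HAT (-2.52, adjusted p = 0.0473). Leaving out only Flur-R 3 HAT replicate 4 gave -3.23 (adjusted p = 0.0186) for the last of these.

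Ordered by mean, untreated J01-S was the highest group for every member and 9425 at 10 HAT the lowest, also without the doubtful libraries. For Bs.00g056700.m01, untreated Flur-R (2223), J01-S at 3 HAT (2163) and untreated 9425 (2001) were neighbours whose libraries overlapped. The balance of the 2 genes with the higher counts was lower after treatment. Per kb of coding sequence, Bs.00g015170 (the sum of its isoforms) was 73.6, 42.8 and 39.9% of Bs.00g056700.m01 in Flur-R untreated, at 3 HAT and at 10 HAT. The corresponding means were 83.2, 52.3 and 38.6% in 9425 and 71.7, 42.1 and 44.4% in J01-S, and at 10 HAT 40.6% in 9425 and 44.2% in J01-S without the doubtful libraries. Untreated libraries spanned 49.1 to 117% and treated libraries 28.3 to 62.8%, and these ratios were not tested. The sources do not say whether reads shared by the isoforms were counted for both. If they were, the sum overstates the gene and all these percentages are too high.

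**Figure D4:**
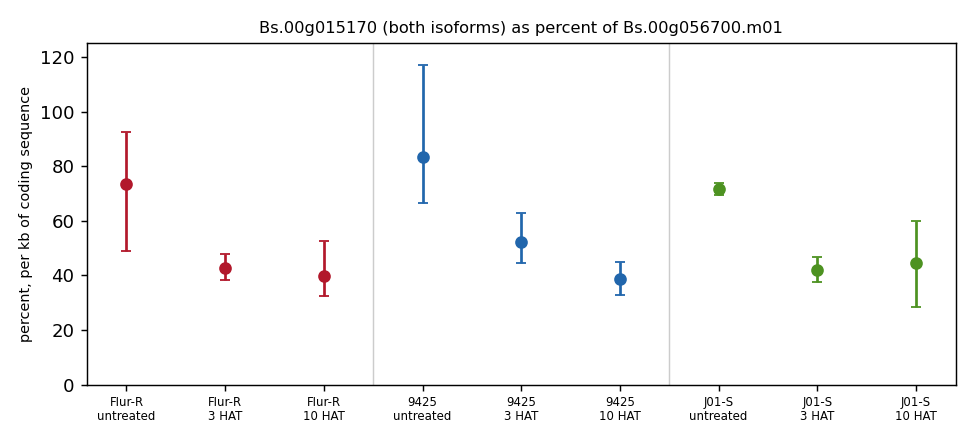
Level of Bs.00g015170 (sum of both isoforms) as percent of Bs.00g056700.m01, each per kb of coding sequence, by line and time. Points are group means and bars run from the lowest to the highest library. Group means are 71.7 to 83.2% untreated and 38.6 to 52.3% after treatment. All percentages would be too high if reads shared by the isoforms were counted for both.

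Across the 27 libraries, log2 levels of Bs.00g015170.m01 and Bs.00g056700.m01 had a Pearson correlation of 0.955, and of 0.862 after group means were removed. Bs.00g260720.m01 had correlations of 0.805 and 0.745 with them. Without the doubtful libraries the 4 values were 0.95, 0.852, 0.779 and 0.71. These are descriptions over libraries that share plants. Of all transcripts compared, those most like Bs.00g056700.m01 were the Bs.00g015170 isoforms. Outside the member loci, the transcripts most like Bs.00g015170.m01 were Bs.00g072550.m01 (0.967) and Bs.00g425910.m01 (0.959). Those most like Bs.00g056700.m01 were then Bs.00g224300.m01 and Bs.00g430630.m01 (0.927 each). For Bs.00g260720.m01 they were Bs.00g098480.m01 (0.958) and Bs.00g473370.m01 (0.954). None of these transcripts outside the member loci has a description in the sources used here. With a description, the closest were a multicopper oxidase (Bs.00g479050.m01, 0.891) for Bs.00g015170.m01, a cyclin (Bs.00g535430.m02, 0.83) for Bs.00g056700.m01 and a glycoside hydrolase of family 17 (Bs.00g478150.m01, 0.93), a family that includes beta-1,3-glucanases, for Bs.00g260720.m01. Without the doubtful libraries these 9 correlations were 0.966, 0.956, 0.919, 0.926, 0.953, 0.948, 0.883, 0.811 and 0.918. Over the 27 libraries the described transcripts ranked only 63, 117 and 19 among transcripts of other loci. Only transcripts in the study's tables, largely lists of the most changed ones, carry a description.

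Markers of other processes and tissues were read in the same libraries. The cyclin of dividing cells, Bs.00g535430.m01, averaged 3.75, 1.5 and 7.67 normalized counts for Flur-R, 9425 and J01-S at 10 HAT, against 93.3, 143 and 208 untreated. The leaf marker chlorophyll a-b binding protein (Bs.00g240870.m01) averaged 3606, 3501 and 5349 at 10 HAT, against 389614, 419016 and 407872 untreated. Both were lower at 10 HAT, and without the doubtful libraries the cyclin averaged 2 in 9425 and 4 in J01-S, and the leaf marker 4360 and 6783. The study describes Bs.00g306100.m01 only as a MADS-box transcription factor, so its level is not read here as a marker of flower tissue. This transcript averaged 8, 383 and 10.0 in Flur-R untreated, at 3 HAT and at 10 HAT. Averages at the same times were 12.3, 47.3 and 10.5 for 9425, then 5.5, 197 and 49.7 for J01-S. Leaving out the doubtful libraries, its 10 HAT average was 8.33 for 9425 and 65.5 for J01-S. Bs.00g306100.m01 was thus highest at 3 HAT in each line. The part of these shifts in the fall of the cellulose synthases was not tested.

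Of 10 other wall-related transcripts in the study's tables, 1 was called higher and 3 lower at 10 HAT in Flur-R, 4 higher and 4 lower in 9425, and 4 higher and 3 lower in J01-S, also without the doubtful libraries. Of all transcripts, 7.64, 11.3 and 6.96% were called higher for Flur-R, 9425 and J01-S, beside the shares called lower given above. The study picked these on the same libraries, so their counts are not independent evidence. A Barwin-like endoglucanase (Bs.00g107600.m01) rose at 10 HAT by 8.04, 8.34 and 5.04 on the log2 scale in Flur-R, 9425 and J01-S (adjusted p of 2.17e-05, 1.11e-05 and 0.012), or by 7.54 in 9425 and 6.17 in J01-S without the doubtful libraries. The glycoside hydrolase of family 17, Bs.00g478150.m01, changed by -4.42, -7.09 and -4.74 (adjusted p of 0.00724, 7.33e-05 and 0.0186), or by -6.67 in 9425 and -4.56 in J01-S (adjusted p = 0.0498) without them. A pectin lyase fold transcript (Bs.00g261820.m01) and a pectinesterase (Bs.00g447890.m01), from families that modify or cleave pectin, averaged 77 and 73.2 normalized counts in 9425 at 10 HAT and 74.0 and 62.0 in J01-S at 10 HAT, and both were listed at 0 in all untreated libraries of these lines. J01-S 10 HAT replicate 3, of doubtful line, was the highest of its group for both, at 143 and 107, and without the doubtful libraries the means were 75 and 69.7 in 9425 and 39.5 for each in J01-S. In Flur-R at 10 HAT they averaged 3.5 and 2.5, against 3.67 and 2.67 untreated, and were not called.

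The neighbours of Bs.00g015170 on the chromosome moved in opposite directions at 10 HAT. Bs.00g015160, 2655 bases away, changed by -1.59, -1.87 and -1.77 on the log2 scale in Flur-R, 9425 and J01-S. Bs.00g015180, 112 bases away, changed by 0.84, 1.20 and 1.04, with a call in each line for both genes. Without the doubtful libraries the changes were -1.72 and -2.03 for Bs.00g015160 and 1.08 and 1.02 for Bs.00g015180 in 9425 and J01-S, all called. Neither has a description in the sources used here.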

How the data were processed

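The authors extracted RNA from leaf tissue around the shoot tip, aligned reads to the coding sequences of kochia assembly version 2 with HISAT2 (2.1.0 in the submitters' processing notes), counted them by transcript and applied DESeq normalization. The deposited values, of the score type, are the authors' DESeq-normalized counts rounded to whole numbers, so no count model was run. The authors ran their own tests with DESeq2 1.28.1 and are not used here. Coordinates are those of the deposited gene models. The study's methods describe some plants as flowering and RNA extraction in batches, which are not identified among the libraries.

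Here log2(normalized count + 1) was fitted in R 4.3.3 by limma 3.58.1 (variance trend on), with 1 mean for each of the 9 groups of line and time over all 27 libraries. P-values were Benjamini-Hochberg adjusted over the 29165 transcripts with at least 10 in at least 2 libraries, and 16352 were not tested. Calls needed an adjusted p under 0.05 and a log2 change over 0.5 in size. Fold changes on this scale understate changes of low transcripts. Library totals are totals of normalized counts and are not read depth. The paper's supplement lists reads per library, and these were not used here. The procedure was tested on simulated data with independent libraries, which cannot show how shared plants affect the calls. Named were the members and up to 4 wall-related transcripts with the largest called changes at 10 HAT. Per gene, the 2 most alike transcripts outside the member loci and the 1 most alike with a description were also named. Members and lists were chosen with earlier results of these data known.

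The alternatives were 0.5 or 8 added in place of 1, no filter, a filter at 50, equal library totals, quantile normalization, only the groups compared, isoforms summed, the plant as a replicate block or random effect, the 2 doubtful libraries left out, and each library left out in turn. Added after the data were seen were the block without the doubtful libraries, and leaving out plant 4 of Flur-R. Plant numbers pair libraries within a line because the series design states that the same plants were sampled. Deviations of libraries from their group means had median correlations of 0.722, 0.46 and 0.607 for Flur-R, 9425 and J01-S within plants. Between plants the medians were -0.275, -0.158 and -0.222. Deviations in a group cancel out, so the values between plants are tied to those within plants and are not separate evidence. Between lines the numbers pair nothing. Comparisons of lines at 1 time were still blocked by replicate number in the block alternative, so there the block matches unrelated plants. Those values are among the alternatives counted below.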

Additional observations from a re-analysis of the deposited data

How the results depend on the processing

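The falls of all members at 10 HAT kept their direction under every alternative run, though some calls were lost. Of 1880 values of members under alternatives, 1748 kept direction and call, 29 lost the call, 27 gained one and 76 changed sign, none of these a called value. Causes were not tested. Read depth was not used, and 2 to 4 libraries a group limit what can be called.

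With no filter, Flur-R at 3 HAT gave -1.74 (adjusted p by limma 0.0594) and -1.75 (0.0579) for the isoforms of Bs.00g015170, with equal library totals -1.59 (0.0995) and -1.60 (0.0974), and with only the groups compared -1.74 (0.107) and -1.75 (0.105), none called. With only the groups compared, Flur-R at 10 HAT gave -2.39 (0.0614), -2.39 (0.0628) and -1.54 (0.0947) for Bs.00g015170.m01, Bs.00g015170.m02 and Bs.00g056700.m01. Bs.00g260720.m01 in J01-S at 10 HAT was not called with equal totals (-2.87, 0.0535), only the groups compared (-3.26, 0.0688) or without the 2 doubtful libraries (-3, 0.0776). Equal library totals moved the median change of all transcripts at 10 HAT to 0.44, 0.27 and 0.43 on the log2 scale for Flur-R, 9425 and J01-S. Transcripts called higher at 10 HAT then numbered 6251, 4969 and 4960 and lower 1771, 2552 and 1509, against 2228, 3309 and 2030 higher and 3022, 3618 and 2560 lower without rescaling. At 3 HAT the split was 1896 higher and 787 lower for Flur-R and 1477 and 639 for 9425, against 1390 and 1168, and 1151 and 972, without rescaling.

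With the replicate block, calls were gained for Bs.00g260720.m01 in Flur-R at 10 HAT (-2.48, 0.0318) and for the isoforms at 3 HAT in 9425 (-1.53 and -1.54) and J01-S (-1.94 and -1.96) and between 10 and 3 HAT in 9425 (-1.17 and -1.20, 0.0399 each). Calls were lost in J01-S at 10 HAT for Bs.00g056700.m01 (-1.84, 0.0616) and Bs.00g260720.m01 (-3.87, 0.064). The block changed no other call of a member. Without the doubtful libraries the block gave -2.48 (0.028), -1.53, -1.54, -1.94, -1.96, -1.84 (0.0525) and -3.87 (0.0532) for the first and for the calls at 3 HAT and in J01-S at 10 HAT, all on the same side of the threshold as with the block alone, but the calls between 10 and 3 HAT in 9425 were lost (-0.98, 0.126 and -1.02, 0.125). With plant as a random effect, calls were gained for Bs.00g056700.m01 at 3 HAT in Flur-R (-1.01, 0.0264), for Bs.00g260720.m01 in Flur-R at 10 HAT (-2.25, 0.0153) and at 10 against 3 HAT (-2.20, 0.0382), for the isoforms in 9425 at 3 HAT (-1.48 and -1.49, 0.0156 each) and at 10 against 3 HAT (-1.20, 0.0242 and -1.24, 0.0217), and in J01-S at 3 HAT for all 4 (-1.94, -1.96, -1.18 and -2.79, adjusted p up to 0.0362). Without plant 4 of Flur-R, Bs.00g260720.m01 was called at 2.97, 2.41 and -2.52, as given above.

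Over all transcripts tested, counts called lower moved by over 1.5 times. With equal totals they were 1771 (main 3022) in Flur-R at 10 HAT, 639 (972) in 9425 at 3 HAT and 1509 (2560) in J01-S at 10 HAT. With only the groups compared they were at 3 HAT 377 (1168) for Flur-R, 65 for 9425 and 0 (956) for J01-S, and 1176 for J01-S at 10 HAT. At 3 HAT, for Flur-R, 9425 and J01-S, they were 2062, 1588 and 1856 with the block, 2325, 1983 and 2366 with the random effect, and 2575, 2119 and 2491 with the block and without the doubtful libraries. With 1 library left out they ranged at 3 HAT from 668 to 1328 (Flur-R), 387 to 962 (9425) and 248 to 580 (J01-S), and from 1255 to 2306 in J01-S at 10 HAT.

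Signs changed only where the values were small or uncalled. Flur-R against 9425 untreated gave 0.01 by quantile normalization for both isoforms, 0.02 with the random effect and 0.25 and 0.24 without plant 4. A block on replicate number, which pairs no plants between these lines, gave 0.09 and 0.08. Bs.00g260720.m01 in Flur-R at 3 HAT gave 0.02 with 8 added, 0.10 with equal totals and 1.16 without plant 4, and in 9425 against J01-S untreated 0.02 with equal totals. In Flur-R against J01-S at 10 HAT it gave -0.05 without the doubtful libraries. The response at 10 HAT, Flur-R minus 9425, of Bs.00g056700.m01 gave -0.06 without the doubtful libraries, -0.03 with the block and -0.18 with both. The response of 9425 minus J01-S at 10 HAT gave -0.15 (equal totals) and -0.02 (isoforms summed) for Bs.00g015170.m01, and 0.04, 0.48, 0.09 and 0.66 for Bs.00g015170.m02 without the doubtful libraries, with the block, with the random effect and with block and omission. Without plant 4, Flur-R against 9425 at 3 HAT gave 0.04, 0.04 and 0.25 for the isoforms and Bs.00g056700.m01, whose response at 3 HAT was then 0.10 above that of 9425.

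With each library left out in turn, Bs.00g015170.m01 and Bs.00g015170.m02 ranged from -2.01 to -1.37 and -2.02 to -1.38 in Flur-R at 3 HAT, and in Flur-R against 9425 from -0.22 to 0.25 and -0.23 to 0.24 untreated, -0.59 to 0.04 and -0.61 to 0.04 at 3 HAT, and -0.18 to 0.80 and -0.15 to 0.84 at 10 HAT. Their responses at 10 HAT ranged from -0.17 to 0.81 and -0.14 to 0.85 (Flur-R minus 9425), -0.16 to 0.82 and -0.19 to 0.81 (Flur-R minus J01-S) and -0.22 to 0.38 and -0.27 to 0.30 (9425 minus J01-S). At 3 HAT the responses ranged from -0.58 to 0.05 and -0.59 to 0.05 (Flur-R minus 9425) and -0.06 to 0.57 and -0.05 to 0.59 (Flur-R minus J01-S). Bs.00g056700.m01 ranged from -0.24 to 0.25 at 3 HAT and -0.07 to 0.69 at 10 HAT in Flur-R against 9425, and its responses from -0.23 to 0.53 at 10 HAT and -0.40 to 0.08 at 3 HAT (Flur-R minus 9425) and -0.03 to 0.47 at 3 HAT (Flur-R minus J01-S). Bs.00g260720.m01 ranged from -0.44 to 0.22 in 9425 against J01-S untreated, -0.72 to 1.46 in Flur-R against 9425 at 3 HAT, -0.17 to 0.92 in Flur-R against J01-S at 10 HAT, -1.05 to 1.13 in Flur-R at 3 HAT and -3.75 to -2.93 in J01-S at 10 HAT. Between 10 and 3 HAT it ranged from -3.23 to -1.05 (Flur-R), -3.78 to -3.06 (9425) and -1.11 to 0.17 (J01-S).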
